A study of Mus musculus with 160 samples.

Results

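The genes described here are 10 regulators of the actin cytoskeleton that leukocytes use: Coro1a, Lcp1, Was, Wipf1, Arpc1b, Hcls1, Nckap1l, Rac2, Vav1 and Dock2. They were 10 of the 23420 rows of the expression table and were chosen by name, with earlier results of the same cells known, so their levels in the groups are given as a description. All 10 were above 1 TPM, a transcript abundance scaled to 1 fixed total per cell, in more than 30 of the 160 cells, the filter that left 9674 genes. The study expressed the transcription factors Runx1 and Hoxa9 from a doxycycline-inducible cassette in C57BL/6 mouse pluripotent stem cells and followed the cells from endothelium to blood. Single cells were sorted, and their polyadenylated RNA was amplified and sequenced.

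The 65 induced hemogenic endothelial cells (iHECs) were sorted as CD31+CD41lowCD45-c-kit+CD201high cells. The induced hematopoietic progenitor cells (iHPCs) were blood cells that iHECs formed on OP9-DL1 feeder cells, stroma that carries a ligand of Notch, with doxycycline still present. The 21 day-14 and 18 day-17 iHPCs, taken on days 3 and 6 of maturation, were CD45+ cells without lineage markers. The 56 day-21 iHPCs, taken on day 10 of maturation, were Ter119-CD45+c-kit+CD127+ cells. All groups shared the strain and the induced factors, the labels named embryonic and induced pluripotent stem cells without saying which lay behind each cell, while the study's text gives embryonic stem cells as the source, and only cDNA in which qPCR found B2m and Gapdh was taken on. Day and sort gate cannot be told apart between iHECs and day 14 or between day 17 and day 21. The labels named no culture or animal, so each group counted as 1 sample, no test was run and every SD is the spread between cells.

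Actin filaments push the cell membrane forward when the Arp2/3 complex starts new branches on existing filaments. In blood cells the small GTPase Rac2 is loaded with GTP by the exchange factors Vav1 and Dock2 and acts through the WAVE complex, whose blood cell subunit is Nckap1l, while the Wiskott-Aldrich protein Was, held by its partner Wipf1, answers to another GTPase, Cdc42. Hcls1 steadies the branches, Lcp1 bundles filaments and Coro1a binds filaments and the Arp2/3 complex. Loss of several of these proteins causes immune deficiency in which leukocytes move or signal poorly. Most of them have a close relative that is used in many other cell types, and these relatives are described further on.

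The promoters of members listed in few iHECs were read beside that of Arpc1b, which all iHECs listed. RefSeq promoters of GRCm38.p6, 250 bases before to 50 after a transcript start and written in the direction of the gene, were at hand for 8 of the 10 members, 12 promoters in all, and Rac2 and Nckap1l had no entry. The promoters were searched on both strands for GAGGAA, a core that PU.1 and other ETS factors bind, and for TGTGGT or TGCGGT, cores that RUNX factors bind. The sets shown are Was, which held both kinds, Vav1 and Dock2, which held GAGGAA close to the start, Arpc1b, which held it although the gene was listed in every iHEC, and Coro1a, which held neither. Capitals mark these motifs on either strand. The Was promoter is chrX:8090442-8090741 on the minus strand, the Vav1 promoter chr17:57278850-57279149 on the plus strand, the Dock2 promoter chr11:34783856-34784155 on the minus strand, the Arpc1b promoter chr5:145114006-145114305 on the plus strand and the first Coro1a promoter chr7:126704767-126705066 on the minus strand.
Was: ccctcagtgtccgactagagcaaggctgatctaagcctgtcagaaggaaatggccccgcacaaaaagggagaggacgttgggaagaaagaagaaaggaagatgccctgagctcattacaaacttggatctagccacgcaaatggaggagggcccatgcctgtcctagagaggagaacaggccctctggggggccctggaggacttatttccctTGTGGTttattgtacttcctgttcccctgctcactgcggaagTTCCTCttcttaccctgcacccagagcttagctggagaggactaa
Vav1: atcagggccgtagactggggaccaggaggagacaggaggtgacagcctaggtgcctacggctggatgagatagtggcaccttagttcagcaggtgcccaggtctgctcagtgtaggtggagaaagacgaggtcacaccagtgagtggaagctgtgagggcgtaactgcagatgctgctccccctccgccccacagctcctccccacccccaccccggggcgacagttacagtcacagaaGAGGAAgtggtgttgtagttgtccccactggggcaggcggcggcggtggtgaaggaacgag
Dock2: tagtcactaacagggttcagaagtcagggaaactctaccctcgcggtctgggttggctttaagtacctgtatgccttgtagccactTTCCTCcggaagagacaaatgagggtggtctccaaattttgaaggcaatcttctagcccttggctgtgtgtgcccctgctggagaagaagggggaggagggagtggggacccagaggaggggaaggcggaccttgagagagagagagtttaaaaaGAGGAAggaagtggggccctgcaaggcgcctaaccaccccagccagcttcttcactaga
Arpc1b: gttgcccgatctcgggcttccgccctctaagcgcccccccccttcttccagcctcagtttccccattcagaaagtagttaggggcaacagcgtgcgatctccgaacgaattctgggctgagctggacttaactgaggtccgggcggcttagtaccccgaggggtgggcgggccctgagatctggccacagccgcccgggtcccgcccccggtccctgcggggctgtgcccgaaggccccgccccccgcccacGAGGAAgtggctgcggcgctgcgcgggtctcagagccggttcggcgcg
Coro1a: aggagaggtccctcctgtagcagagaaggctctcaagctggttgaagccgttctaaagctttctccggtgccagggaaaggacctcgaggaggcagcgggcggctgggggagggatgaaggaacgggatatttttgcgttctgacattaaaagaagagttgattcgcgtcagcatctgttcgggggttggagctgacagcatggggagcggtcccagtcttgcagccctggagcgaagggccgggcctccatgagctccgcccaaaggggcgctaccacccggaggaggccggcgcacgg

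GAGGAA stood in 5 of the 12 promoters (41.7%), against 28.3% of the 32851 RefSeq promoters of the same length. A RUNX core stood in 3 of the 12 (25%), 1 of Was and 2 of Wipf1, against 22.4% of all promoters. Both kinds together stood in 2 of the 12, 1 each of Was and Wipf1, against 6.19% of all. In Vav1 and Dock2 the first base of GAGGAA lay at position -11 and -9 from the start, and in Arpc1b at position 3. GAGGAA was thus present beside a gene listed in every iHEC and beside one listed in none, and a match in these windows is a description and not a binding site.

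Several libraries stood apart from their labels and bear on what follows. Library D14_4 and library D14_17 had Ptprc, the gene of CD45, at 0 and Pou5f1, a gene of pluripotent cells, at 972 and 698 TPM. Library D17_9 had Ptprc at 0.28 TPM, Kdr, an endothelial gene, at 55.4 TPM and Col1a1, a stromal gene, at 45.2 TPM. Endothelial Sox18 and Ecscr were at 13.5 and 8.78 TPM in it, but Cdh5, Tek, Pecam1, Sox7 and Emcn were at 0. Kdr also reached 51.4 TPM in D17_15, a cell with Ptprc at 50.6 and Col1a1 at 8.98 TPM. Among the 17 day-17 iHPCs with Ptprc, D17_15 had the lowest Coro1a (582 TPM) and Rac2 (116 TPM). It stays in all values given without the iHPCs of low Ptprc. The 3 cells D14_4, D14_17 and D17_9 listed 4, 2 and 4 of the 10 members although each had over 8000 genes above 1 TPM. Library D21_49 had Ptprc at 0 but listed all 10 members. The TPM scale keeps no read depth, so library complexity could be judged from the genes detected alone, with median counts above 1 TPM of 4926 for iHECs and 8200, 8101 and 6695.5 for the iHPC groups by day. Endothelial Cdh5 was listed, meaning above 1 TPM, in 63 of 65 iHECs and in 0 iHPCs. Ptprc was listed in 1 iHEC and in 19 of 21, 17 of 18 and 55 of 56 iHPCs by day.

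The first question was which members iHECs already list. Arpc1b, the p40 subunit of the Arp2/3 complex, was above 1 TPM in 65 of 65 iHECs, with a lowest value of 189, a median of 1478 and a highest of 3682 TPM. Lcp1, the filament bundling protein L-plastin, was above 1 TPM in 62 of 65 iHECs, with a median of 209.9 TPM and a highest value of 1404. Both were therefore general features of this endothelium, and their values overlapped those of all iHPC groups. Wipf1, the Was partner, was above 1 TPM in 22 of 65 iHECs (33.8%, with a Clopper-Pearson exact 95% interval of 22.6 to 46.6), with a median of 17.8 TPM in the cells that listed it. Such intervals and limits account for counting error alone and take each cell as separate.

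The other 7 members, grouped after their values had been seen, were listed in a minority of iHECs. Coro1a was listed in 14 iHECs (21.5%, with an interval of 12.3 to 33.5), and so was Was. Hcls1 was above 1 TPM in 12 iHECs (18.5%, 9.92 to 30.03) and Vav1 in 6 (9.23%, 3.46 to 19.02). Rac2 was above 1 TPM in 4 iHECs (6.15%, 1.70 to 15.01) and Nckap1l in 2 (3.08%, 0.375 to 10.7). These intervals overlap between neighbors in that order, so the order itself is not firm. Dock2 was listed in 0 of 65 iHECs, with an exact interval of 0 to 5.52%, and its highest value was 0.031 TPM. The simpler limit of 3 cells of 65 allows a share of up to 4.62%. A gene at 0 in such a table may be a transcript that was missed in amplification and is described as listed at 0, not as absent.

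Of the 65 iHECs, 38 listed none of these 7 members, 12 listed 1, 7 listed 2, 7 listed 3, and 1 listed 5. Over all 10 members, an iHEC listed between 1 and 7 with a median of 3. The commonest states were 2 members in 25 cells and 3 members in 21 cells, while 6 cells listed 4, 5 listed 5, 5 listed 6 and 1 listed 7. Hence 11 of 65 iHECs listed 5 or more members.

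**Figure D1:**
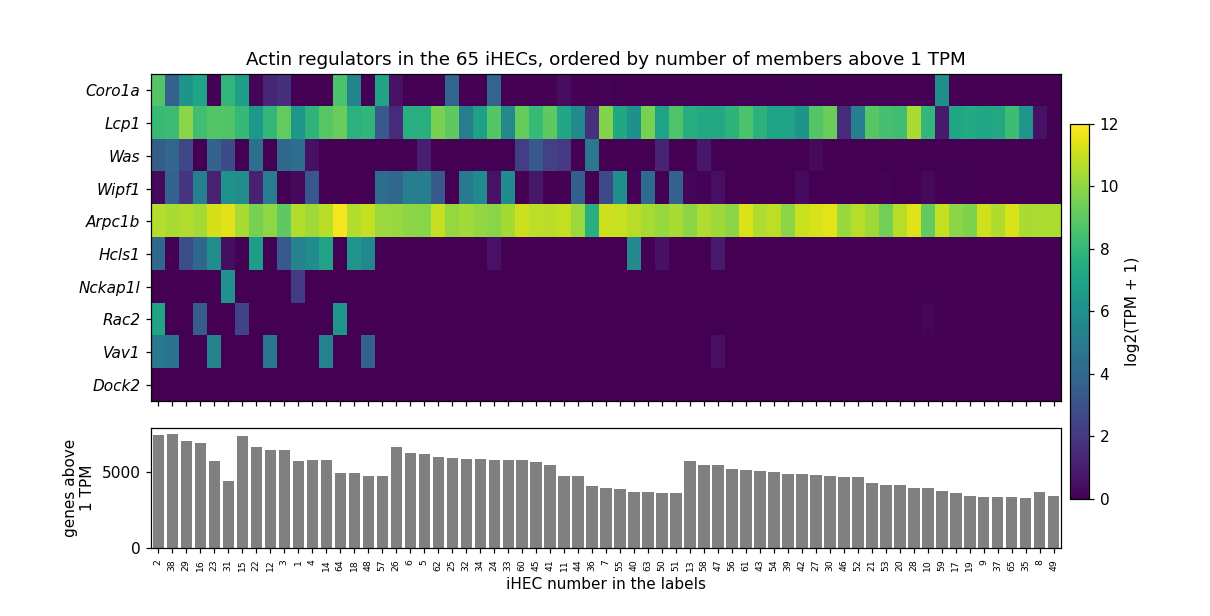
Level of the 10 members on the log2(TPM + 1) scale (color) in each of the 65 iHECs (columns, ordered by the number of members above 1 TPM), with the number of genes above 1 TPM per cell in bars underneath. Arpc1b and Lcp1 fill nearly every column, and Dock2 is at or near 0 throughout. The other members lie mostly to the left, which follows from the ordering of the columns.

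The cell with the most members was iHEC_2, with 7. It listed Coro1a at 448 TPM, Rac2 at 126, Vav1 at 26.9, Hcls1 at 15.7 and Was at 10.6, beside Lcp1 at 275 and Arpc1b at 1601. It was the only iHEC with 5 of the 7 rarer members. Among the 5 cells with 6 members, iHEC_31 listed Coro1a at 239.6 TPM, Nckap1l at 65.9, Wipf1 at 68.0 and Was at 5.61. Nckap1l in this cell was within the range of day-17 iHPCs, whose median was 52.1 TPM. Cell iHEC_23 listed Hcls1 at 57.2 TPM, Vav1 at 41.4 and Was at 12.6 with Coro1a at 0. Cell iHEC_16 listed Coro1a at 129.2 TPM, Hcls1 at 14.9 and Rac2 at 9.77, without Was. Cell iHEC_29 listed Coro1a at 73.8 TPM, Hcls1 at 6.07 and Was at 4.79, and iHEC_38 listed Vav1 at 22.4, Was at 14.8 and Coro1a at 12.2. The rarer members thus came in different combinations in these cells. The 5 cells with 5 members were iHEC_1, iHEC_3, iHEC_12, iHEC_15 and iHEC_22, in which Coro1a ranged from 0 to 101.2 TPM and Hcls1 from 0 to 104.3 TPM.

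Whether members appear together was read from pairs. All 4 iHECs with Rac2 also listed Coro1a, against 14 iHECs with Coro1a in all. Among these 4, iHEC_15 and iHEC_16 were alike in several genes, with Laptm5 at 131.6 and 131.5 TPM and Pecam1 at 212 and 207. Hcls1 differed between iHEC_15 and iHEC_16 (0 and 14.9 TPM), and whether they were separate cells was not tested. Was and Hcls1 were listed together in 6 cells, of 14 and 12, and Coro1a with Was and Coro1a with Hcls1 in 5 cells each. Of the 6 iHECs with Vav1, 4 listed Hcls1 and 3 each listed Was and Coro1a. Both iHECs with Nckap1l listed Was, and 1 of them Coro1a, whereas Nckap1l was found with neither Rac2 nor Vav1 in any iHEC. Rac2 and its exchange factor Vav1 shared 1 iHEC, iHEC_2. The pair of WAVE activation, Rac2 and Nckap1l, thus had no iHEC above 1 TPM for both. Rac2, Vav1 and Nckap1l were listed in only 4, 6 and 2 of 65 iHECs. Such counts are too small to tell whether these genes keep apart, and nothing is read from the missing overlap.

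**Figure D2:**
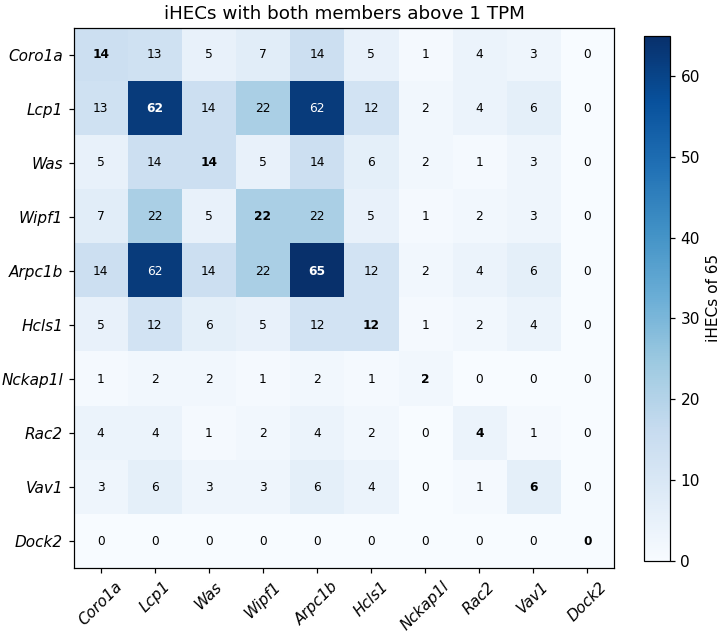
Number of the 65 iHECs in which both members of a pair are above 1 TPM (rows and columns are the members, color and digits the count), with the count of each member alone on the diagonal in bold. All 4 Rac2 cells lie in the Coro1a row, and the Dock2 row holds only 0.

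Across the 65 iHECs, the correlation of log2(TPM + 1) was highest for Coro1a and Rac2 (r = 0.65), followed by Hcls1 and Vav1 (r = 0.43) and Was and Hcls1 (r = 0.35). The median over the 36 pairs without Dock2 was 0.13, with a range of -0.21 to 0.65. The points of each correlation are cells that share their library preparation and differ in complexity, and most values are 0. Pairs within iHECs were therefore weakly related except for these few.

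The number of members listed moved with the complexity of the library. Over 65 iHECs, the number of members above 1 TPM correlated with the number of genes above 1 TPM at r = 0.66. When iHECs were split by genes above 1 TPM, the 21 cells with the fewest (3309 to 4283 genes) included 0 with 5 or more members and 4 with any of the 7 rarer members. The 22 cells in the middle (4405 to 5728 genes) included 2 and 9, and the 22 cells with the most (5731 to 7533 genes) included 9 and 14. Wipf1 was listed in 4, 3 and 15 cells of these, and Coro1a in 1, 4 and 9. Cell iHEC_31, which had the lowest summed endothelial markers of all iHECs, listed 6 members with 4405 genes. Cells with 2 members had up to 5731 genes. Without the 3 iHECs of lowest endothelial sum, described further on, r was 0.68 over 62 cells. The part of library complexity in the co-listing was not tested.

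**Figure D3:**
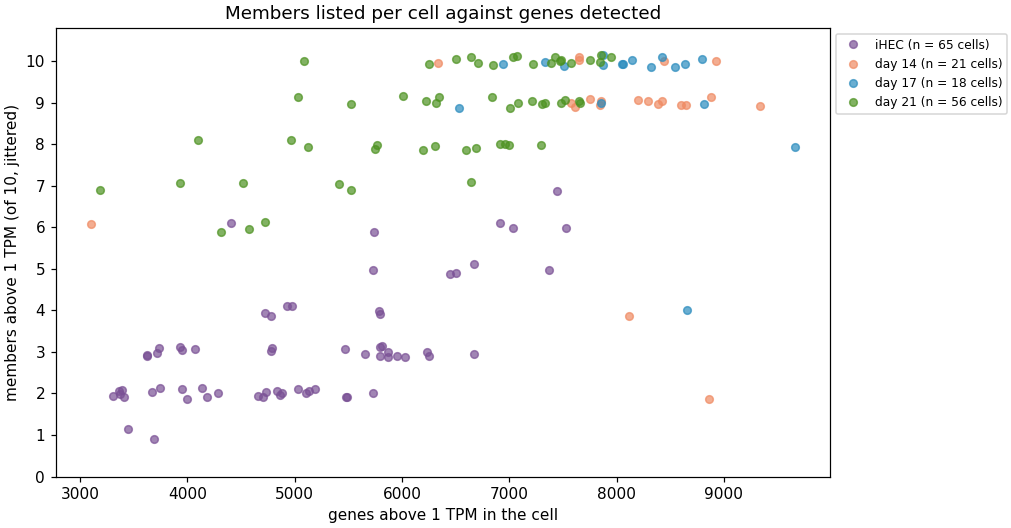
Members above 1 TPM (of 10) against genes above 1 TPM for each of the 160 cells, colored by group, with a small vertical jitter. iHECs lie between 1 and 7 members, nearly all iHPCs between 6 and 10, and 3 iHPCs with over 8000 genes lie at 2 to 4.

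The 3 iHECs highest in Coro1a were iHEC_2 (448 TPM), iHEC_64 (389 TPM) and iHEC_31 (239.6 TPM). The next highest was iHEC_16 at 129.2 TPM. The same 3 cells had the lowest summed TPM of 8 endothelial markers among the 65 iHECs, with 120, 330 and 57.5 TPM against a median of 2176 TPM. They were also the 3 iHECs with Tyrobp, a signaling adaptor of myeloid cells, above 1000 TPM. These cells therefore joined high Coro1a to a low endothelial sum and much blood cell RNA, although all were sorted in the CD45-negative gate. Endothelial markers were still listed in them, 7 of 8 in iHEC_2, 6 in iHEC_64 and 4 in iHEC_31. Cell iHEC_64 was the only iHEC with Ptprc above 1 TPM (53.9 TPM) and listed Rac2 at 81.3 TPM. It had endothelial Cdh5 at 0.44 TPM but Ecscr at 162 and Pecam1 at 70.2 TPM. Of 9 blood markers it listed 6, summing to 2962 TPM, and of 7 neutrophil or monocyte markers 2, with Lyz2 at 3992 TPM and Prtn3 at 70.1 TPM. Mpo, Elane, Ctsg and Csf1r were at 0 in this cell. Cells iHEC_2 and iHEC_31 listed 8 and 4 of the 9 blood markers, with sums of 2216 and 2018 TPM, and had Ptprc at 0. What these 3 cells were was not tested.

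Without these 3 cells, 24 of the remaining 62 iHECs listed at least 1 of the 7 rarer members, 6 listed 3 or more and 9 listed 5 or more of all 10. Coro1a and Rac2 then had r = 0.54 over 62 cells, with both genes in 2 cells. These were iHEC_15 and iHEC_16, the cells alike in several genes, so this value may rest on fewer separate cells. Hcls1 and Vav1 had r = 0.39 with both in 3. Coro1a reached at most 129.2 TPM. Members of this set were thus also listed in iHECs of full endothelial signal: iHEC_16 had a sum of 3154 TPM for the endothelial markers and listed all 8 of them, as did iHEC_23 with 2848 TPM and iHEC_29 with 2186 TPM.

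The 9 blood markers were then read against the 7 rarer members in the 62 other iHECs. Sfpi1, which encodes the blood transcription factor PU.1, was listed in 20 of these, of which 13 listed at least 1 of the 7, against 11 of the 42 without it. Laptm5, a lysosomal protein of blood cells, was listed in 36, 19 of them with at least 1 of the 7, against 5 of the 26 without it. For Cd53, a membrane protein of blood cells, the counts were 13 of 22 and 11 of 40. The counts lay closer for Itga2b, the gene of CD41, with 12 of 24 and 12 of 38, and for Tyrobp, with 6 of 14 and 18 of 48. Myb and Ikzf1 were listed in 1 and 7 of these iHECs, and Ptprc and Spn in 0. The markers thus differed in how far they went with the members. Of the 6 iHECs with 3 or more of the 7, 6 listed Laptm5, 5 Sfpi1, 5 Cd53, 3 Tyrobp and 2 Itga2b, and all listed endothelial Cdh5. The count of the 7 correlated across the 62 cells with Sfpi1 at r = 0.55, with Laptm5 at 0.46, with Cd53 at 0.31 and with Itga2b and Tyrobp at 0.23 each. Over all 65 iHECs, Sfpi1 itself correlated with genes above 1 TPM at r = 0.25 and Laptm5 at r = 0.61, so library complexity moved more with Laptm5 than with Sfpi1.

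The genes outside the set whose level in iHECs went most with the number of members listed were Brca2 (r = 0.68), Rxrb (0.65), Chaf1a (0.63), Ly6e (0.62), Med25 (0.61), Ldlrad3, Phgdh, Tuba8, Cnbd2 (each 0.60) and Laptm5 (0.59), among 8781 genes ranked over 65 cells. Brca2, a DNA repair gene, and Chaf1a, a chromatin assembly gene, themselves correlated with genes above 1 TPM at r = 0.54 and 0.52. When the linear trend over genes above 1 TPM was removed, a step added after the data had been seen, 5 of the 10 stayed among the 10 highest and Sfpi1 was highest (r = 0.55), followed by Ly6e (0.54) and Lsp1 (0.52), a leukocyte actin-binding protein.

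The second question was how the members differ between iHECs and iHPCs. On the log2(TPM + 1) scale, 7 of 10 members were higher by 2 or more at day 14 than in iHECs, and 25.7% of the 9674 genes were. Of the members, 0 were lower by 2 or more, as 5.63% of genes were. With a pseudocount of 10 the first count was 4 (Coro1a, Rac2, Hcls1 and Vav1). A difference of 2 on this scale is 4-fold for well expressed genes and understates the change of low ones. The median difference was 2.95 for the members and 0.93 for all genes. Since the members were chosen with these values known, nothing is read from that contrast. Each difference given next is followed by its value relative to the median of all genes.

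Of the filament binding members, Coro1a differed most. It ranged from 0 to 448 TPM in iHECs with a median of 0, whereas in day-14 iHPCs the lowest, median and highest values were 30.4, 1505 and 3194 TPM. Library D14_17 and library D14_4 held the low values at day 14, and without them the lowest was 785 TPM, above every iHEC. The mean was 1.22 ± 2.54 (SD between 65 cells) in iHECs and 10.08 ± 1.69 (21 cells) at day 14, a difference of 8.86 (7.93 relative to the median). Lcp1 had a median of 204 TPM at day 14, beside 209.9 in iHECs, and its means differed by -0.01 (-0.94 relative). Without the iHPCs of low Ptprc, the day-14 mean of Lcp1 was higher by 0.65 (-0.29 relative). Coro1a was thus listed in a minority of iHECs and in all day-14 cells, whereas Lcp1 was listed in nearly all cells of both groups.

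Of the Arp2/3 complex and its activators, Hcls1 had a median of 0 TPM in iHECs and of 91.6 at day 14, with a highest value of 118 in iHECs and 171 at day 14. Its mean was higher by 4.92 (3.99 relative). Nckap1l had a highest value of 65.9 TPM in iHECs and a median of 12.8 at day 14, where it ranged from 0 to 61.4, and its mean was higher by 3.31 (2.39 relative). Was had a median of 0 in iHECs and of 15.3 TPM at day 14, with highest values of 27.2 and 23.5 TPM, and its mean was higher by 2.58 (1.65 relative). For Was and Nckap1l no day-14 cell exceeded the highest iHEC. For Nckap1l that top value was iHEC_31 alone, a cell of low endothelial sum, and the other listing iHEC, iHEC_1, had 3.19 TPM. Arpc1b had a median of 1710 TPM at day 14 and differed by -0.08 (-1.01 relative), or by 0.26 without the iHPCs of low Ptprc. Wipf1 stayed low, with a median of 0.49 TPM at day 14 and a highest value well under the 68.0 TPM of the highest iHEC, and differed by -0.35 (-1.28 relative), or by 0.20 with a pseudocount of 0.1.

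Of the Rac branch, Rac2 had a median of 0 TPM in iHECs, where the highest value was 126. At day 14 its lowest, median and highest values were 0.99, 403 and 571 TPM, and only D14_17 and D14_4 lay at or under the highest iHEC. Its mean was higher by 7.67 (6.74 relative). Vav1 had a highest value of 41.4 TPM in iHECs and a median of 77.8 at day 14, with a range of 0 to 121, and its mean was higher by 5.19 (4.26 relative). Dock2 went from a highest value of 0.031 TPM in iHECs to a median of 4.22 at day 14, with a range of 0 to 15.9, and its mean was higher by 2.14 (1.21 relative). All 3 genes of this branch were thus higher at day 14, Rac2 by far at the highest level and Dock2 at the lowest.

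The levels in cells that listed a member were compared between iHECs and day 14. The median over listing cells was 67.6 TPM for Coro1a in iHECs and 1505 at day 14, and 45.5 and 410 TPM for Rac2. It was 48.3 and 102 TPM for Hcls1, 26.2 and 81.0 TPM for Vav1 and 9.90 and 16.1 TPM for Was. These 5 members were thus listed at lower median levels in iHECs, as was Arpc1b (1478 and 1710 TPM), and 3 others were not. The medians were 17.8 and 4.74 TPM for Wipf1, 34.6 and 14.2 TPM for Nckap1l, which rests on 2 iHECs, and 219 and 212 TPM for Lcp1. At day 21, Coro1a lay at or under the highest iHEC in 1 of 56 cells and Rac2 in 0, whereas Was did so in 45, Nckap1l in 55 and Hcls1 in 38.

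**Figure D4:**
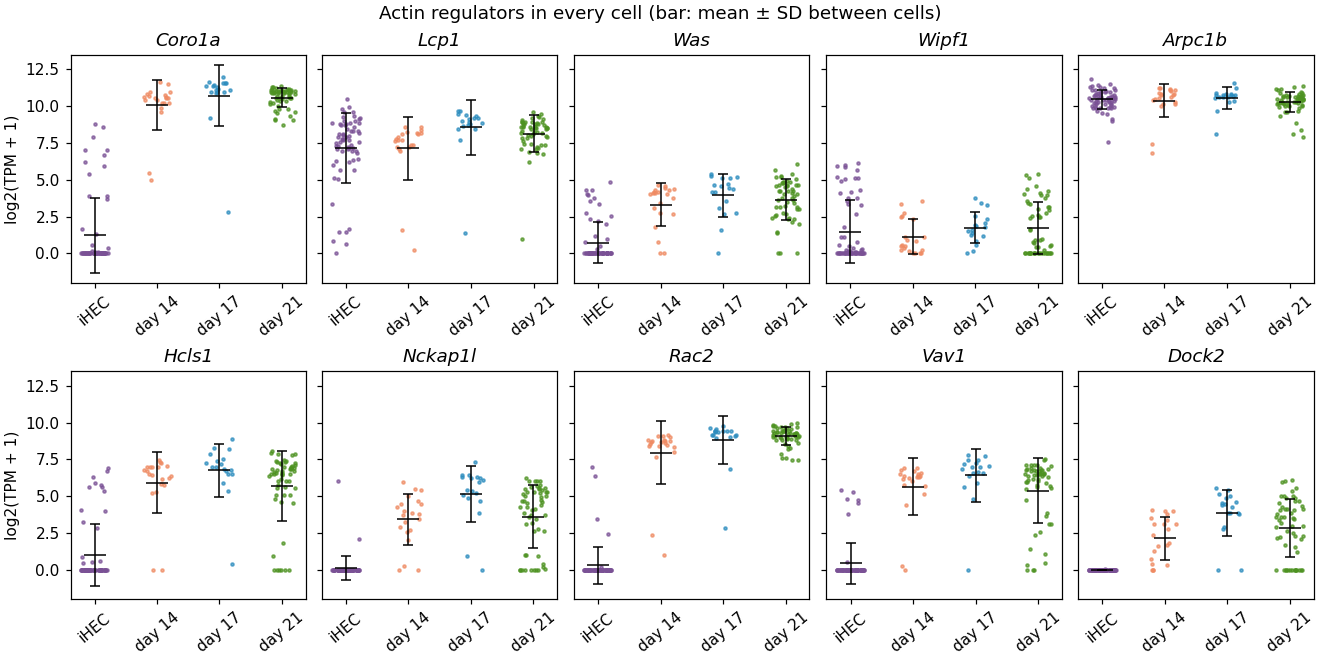
Each member on the log2(TPM + 1) scale in every cell of the 4 groups (points), with black bars for the mean ± SD. Arpc1b and Lcp1 overlap between iHECs and iHPCs, Wipf1 is low in all groups, and the day-14 and day-17 points far under the rest are libraries D14_4, D14_17 and D17_9.

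The mean levels among members kept a similar order in iHPCs. At day 14 the order was Arpc1b (10.38 ± 1.14), Coro1a (10.08 ± 1.69), Rac2 (7.96 ± 2.13), Lcp1 (7.15 ± 2.14), Hcls1 (5.92 ± 2.06), Vav1 (5.64 ± 1.93), Nckap1l (3.44 ± 1.73), Was (3.31 ± 1.47), Dock2 (2.14 ± 1.47) and Wipf1 (1.12 ± 1.19). Neighbors in this order differed by less than the larger of their SDs except Vav1 and Nckap1l. Without D14_4 and D14_17 the SDs were smaller (0.49 for Coro1a, 0.38 for Rac2, 0.50 for Lcp1 and 0.65 for Hcls1). The gaps from Coro1a to Rac2, from Rac2 to Lcp1 and from Lcp1 to Hcls1 then also exceeded the larger SD. In iHECs the order was Arpc1b, Lcp1, Wipf1, Coro1a, Hcls1, Was, Vav1, Rac2, Nckap1l and Dock2, and from Wipf1 down neighbors differed by less than 1 on the log2 scale.

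From day 14 to day 17, 0 members were higher by 2 or more and 0 lower, as were 2.76% and 0.62% of the 9674 genes. The largest differences were those of Nckap1l (1.71, 1.44 relative) and Dock2 (1.71, 1.43 relative), followed by Lcp1 (1.41, 1.13 relative). Median TPM went from 12.8 to 52.1 for Nckap1l, from 4.22 to 19.2 for Dock2 and from 204 to 505 for Lcp1. Wipf1, listed in 8 of 21 cells at day 14, was listed in 14 of 18 at day 17, at a median of 2.16 TPM. The differences of the 10 members ranged from 0.18 (Arpc1b, -0.09 relative) to 1.71, beside a median of 0.28 for all genes. Arpc1b differed by -0.01 without the iHPCs of low Ptprc. Over all cells each of these differences except that of Dock2 was smaller than the larger SD of the groups compared. Without the iHPCs of low Ptprc, Lcp1 (1.17, larger SD 0.50) and Nckap1l (1.67, larger SD 1.43) also differed by more than that SD.

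From day 17 to day 21, 0 members were higher by 2 or more, as were 0.755% of genes, and 0 were lower by 2 or more, as were 7.76%. The median difference was -0.36 for the members and -0.74 for all genes. Nckap1l (-1.55, -0.81 relative), Hcls1 (-1.07, -0.33 relative), Vav1 (-1.05, -0.31 relative) and Dock2 (-1.03, -0.29 relative) had lower means at day 21, while Rac2 differed by 0.23 (0.97 relative), or by -0.10 without the iHPCs of low Ptprc. Coro1a and Rac2 were above 1 TPM in 56 of 56 day-21 cells, at 425 to 2661 TPM and at 173 to 1012 TPM. Dock2 was listed in 42 of 56, Nckap1l in 44, Hcls1 in 49, Vav1 in 51 and Was in 53.

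Day-14, day-17 and day-21 iHPCs listed a median of 9, 10 and 9 members. All 7 of the rarer members were above 1 TPM in 15 of 21, 15 of 18 and 28 of 56 cells. At day 21 the number of members correlated with genes above 1 TPM at r = 0.69 over 56 cells. The 3 day-21 cells with 6 members had 4313 to 4721 genes, and the 18 with all 10 had a median of 7302.5. Coro1a on the log2 scale correlated with genes above 1 TPM at r = 0.74 in these cells, Hcls1 at 0.64, but Was at 0.13 and Dock2 at 0.10. At day 21 the sum of 8 mast cell or basophil markers ranged from 40.4 to 115998 TPM. Among these markers, the mean log2 level of Cpa3, Mcpt1, Mcpt2, Mcpt4, Cma1 and Gata2 correlated with members at -0.03 (Vav1) to 0.33 (Arpc1b). The part of these cells in the members' levels was not tested.

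The median correlation over 45 pairs of members was 0.67 at day 14 and 0.75 at day 17. Without the iHPCs of low Ptprc it was 0.27 over 19 cells and 0.45 over 17 cells, and at day 21 it was 0.23 over both 56 and 55 cells. The tight relation at day 14 and day 17 thus rested largely on D14_4, D14_17 and D17_9.

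Most members have a broadly used relative, and the balance between the members and these relatives was compared within cells. In iHECs the relative was the higher one for most pairs. Rac1 exceeded Rac2 in 65 of 65 iHECs, with a median of 362 TPM. In iHPCs, Rac2 exceeded Rac1 in 15 of 21, 15 of 18 and 43 of 56 cells, while Rac1 had medians of 337, 425 and 368 TPM. Rac1 was thus close to its iHEC level in iHPCs while Rac2 came up to it. Likewise, Coro1b exceeded Coro1a in 59 iHECs and Coro1a exceeded Coro1b in 19 of 21, 17 of 18 and 56 of 56 iHPCs, with Coro1b at a mean of 7.27 in iHECs and 7.65 at day 14.

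Some other pairs changed places, whereas Lcp1 already exceeded Pls3 in 47 of 65 iHECs. Wipf1 exceeded its relative Wipf2 in 30 iHECs and was exceeded in 15. Vav1 exceeded Vav2, another relative, in 7 iHECs and was exceeded in 1. Cttn, the broadly used relative of Hcls1, had a mean of 5.73 ± 2.37 in iHECs, and of 2.44 ± 1.92, 1.77 ± 2.32 and 0.35 ± 1.19 in the iHPC groups by day. The mean of Hcls1 minus Cttn within cells was -4.73 ± 2.93 in iHECs and 3.47 ± 3.42 at day 14. Nckap1 exceeded Nckap1l in 39 iHECs and Nckap1l exceeded Nckap1 in 19 of 21 day-14 iHPCs, with means of Nckap1 of 2.49 ± 2.84 and 0.02 ± 0.10. Dock1 exceeded Dock2 in 58 of 65 iHECs and Dock2 exceeded Dock1 in 17 of 21 day-14 iHPCs, with means of Dock1 of 3.61 ± 2.16 and 0.80 ± 1.01. Pls3, the relative of Lcp1, had a mean of 6.14 ± 2.61 in iHECs and 1.58 ± 1.90 at day 14, so the Lcp1 to Pls3 balance moved from 1.02 ± 3.67 to 5.57 ± 3.58 with Lcp1 itself level. Wasl, the relative of Was, and Vav3, a relative of Vav1, had means of 3.40 and 2.51 in iHECs and 2.21 and 2.18 at day 14. Arpc1b exceeded Arpc1a in each of the 160 cells. Of 12 relatives, 11 passed the filter on low values, and from iHEC to day 14 0 of them were higher and 4 lower by 2 or more (Pls3, Cttn, Dock1 and Nckap1), as were 25.7% and 5.63% of all genes.

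**Figure D5:**
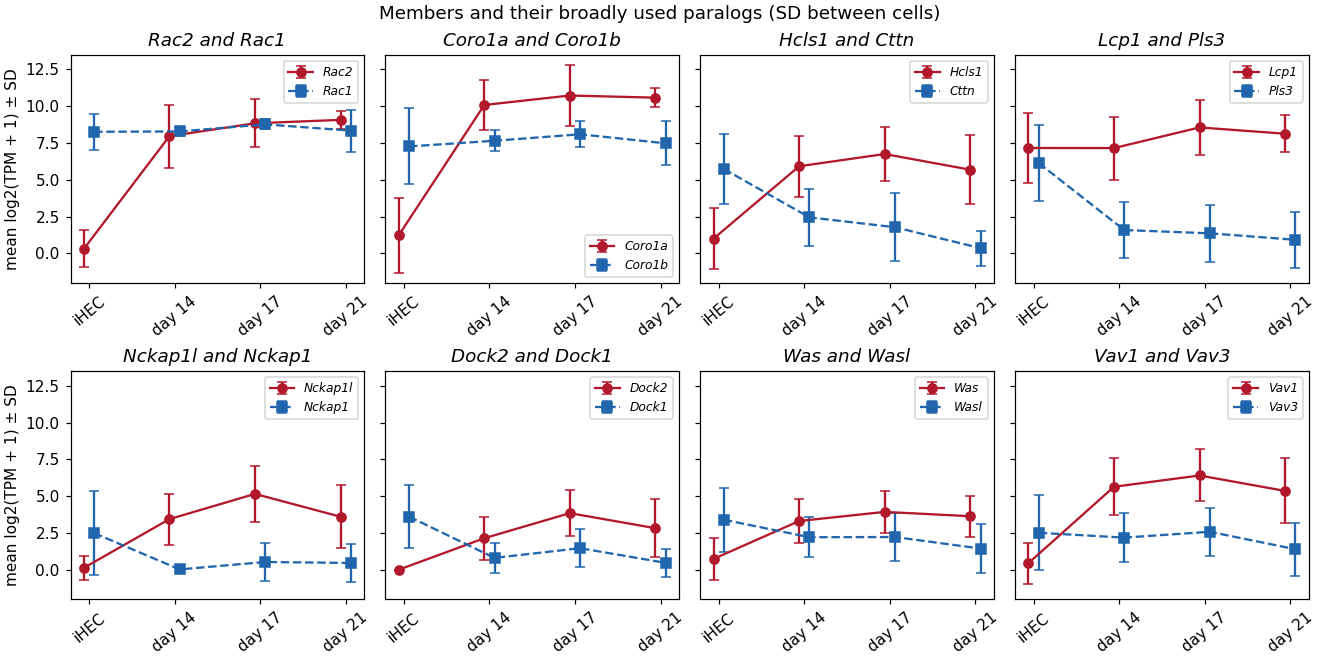
Mean log2(TPM + 1) with its SD between cells, by group, for 8 members (circles, solid lines) and a broadly used relative of each (squares, dashed lines). Rac1 and Coro1b stay level while Rac2 and Coro1a join them at day 14, and Cttn, Pls3, Nckap1 and Dock1 are lower in iHPCs than in iHECs.

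The rest of the pathway was read from lists drawn up by function, with each list counted whole, beside the 25.7% of all genes that were higher and the 5.63% that were lower by 2 or more from iHEC to day 14. Of 7 other Arp2/3 subunits, 0 were higher and 0 lower by 2 or more from iHEC to day 14, with a median difference of -0.74 beside 0.93 for all genes. Arpc2 had means of 10.19 and 9.42 and Arpc3 of 9.85 and 8.20. The subunits of the complex that Was and the WAVE complex activate were thus, like Arpc1b, well expressed in iHECs. Of 9 WAVE complex genes, 7 passed the filter and 1 was higher, Cyfip2 (0.12 to 2.94), while Cyfip1 went from 5.28 to 3.32. Of 17 other leukocyte cytoskeleton genes, 10 were higher and 1 lower. Among these were Arhgap9 (0.42 to 6.76), Lsp1 (1.07 to 7.07), Myo1g (0 to 5.59) and Ezr (0.11 to 5.30), and the lower one was Gmfg (8.63 to 5.68). Of 9 actin and monomer binding genes, 3 were higher (Cap1, Wdr1 and Gsn), a share near that of all genes, and Actb had means of 12.55 and 12.82.

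Over all 160 cells, the genes most like the mean of the 10 members were Arhgap9 (r = 0.93), Lrmp (0.93), Parvg (0.93), Coro2a (0.92), Myo1g (0.91), Selplg (0.91), Psmb8 (0.91), Btk (0.91), Tuba4a (0.90) and Milr1 (0.90), among 9664 genes ranked. The points share the 4 groups, and within the 95 iHPCs the same genes had r between 0.54 and 0.73. These 95 include D14_4, D14_17 and D17_9, and how far the values rest on them was not tested. Myo1g and Parvg were above 1 TPM in 0 of 65 iHECs, as was Dock2, and Arhgap9 in 5. Arhgap9 correlated with the mean of the members at r = 0.65 over the 65 iHECs, which include the 3 of lowest endothelial sum.

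Positions in GRCm38 and overlapping genes limit the reading of some members, since the strand of the libraries was not stated. Coro1a (chr7:126699773-126707787, minus strand) overlaps Bola2 on the other strand, Arpc1b (chr5:145114215-145130705, plus strand) overlaps Pdap1, and Dock2 (chr11:34226815-34783892, minus strand) overlaps Fam196b and an antisense gene. Lcp1 (chr14:75131101-75230842, plus strand), Was (chrX:8081453-8090498, minus strand) and Wipf1 (chr2:73429610-73529734, minus strand) overlap noncoding genes on the other strand. Reads of these partners cannot be told apart from those of the members by strand. Rac2 (chr15:78559167-78572783, minus strand), Nckap1l (chr15:103453794-103498810, plus strand), Hcls1 (chr16:36934983-36963212, plus strand) and Vav1 (chr17:57279100-57328031, plus strand) overlap no annotated gene.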

How the data were processed

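Single iHECs and iHPCs were profiled by RNA sequencing, 160 cells in 4 groups taken from the labels. According to the labels and the study's methods, the authors amplified cDNA with the Discover-sc WTA Kit V2, made libraries by the TruePrep DNA Library Prep Kit V2, aligned reads to mm10 with HISAT2 2.1.0 and estimated TPM with StringTie 1.3.4. SAMtools 0.1.19 and bcl2fastq are also named in the submitters' processing notes. The annotation, the library strand and the use of molecular tags are not given in the sources used here, and the labels and methods name different sequencers. The deposited TPM values form 1 table of 23420 rows, of which 0 cell columns were left unused, and a cell's TPM summed to 988686 to 999108. TPM is scaled to a fixed total within each cell, so it keeps no depth, and a gene that takes a larger share lowers all others.

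Analysis was on log2(TPM + 1), the pseudocount being 1. Genes above 1 TPM in a cell were called listed there, and genes above 1 TPM in more than 30 cells entered differences between consecutive groups (later minus earlier). A difference was called at 2 or more. Shares carry exact Clopper-Pearson 95% intervals, and the limit for 0 cells is 3 cells of the total. No cell was left out, 0 pairs of cells had identical values in every gene, and no doublet caller was run. Some cells with neighboring labels were close in several genes without being identical. Examples are iHEC_24 and iHEC_25 (Coro1a at 13.9 and 14.0 TPM) and D17_10 and D17_11 (Runx1 at 315 and 317 TPM). Such cells were counted as separate, which was not tested, so counts, intervals and correlations may rest on fewer cells. Likeness was Pearson's r, in iHECs between a gene and the number of members above 1 TPM (genes above 1 TPM in at least 10 iHECs) and over all cells between a gene and the mean of the members. The 10 highest of each were named, besides all members and the genes of the lists, 1 of which is not reported here. Single iHECs were named when they listed 5 or more members, and others (iHEC_64, Sfpi1, Laptm5 and Tyrobp among them) after their values had been seen. The members and lists were chosen with earlier results of these data known. The code for differences and likeness was checked on made-up tables with known answers, and no test was run between groups. Alternatives were thresholds of 0 and 10 TPM, pseudocounts of 0.1 and 10, median-of-ratios size factors, no filter on low values, Spearman's rank correlation, and leaving out cells with few genes or iHECs with Ptprc. Leaving out iHPCs with Ptprc at or under 1 TPM or the 3 iHECs of lowest endothelial sum, and removing the trend over genes above 1 TPM, were added after the data had been seen. Python 3.11.15, pandas 2.3.3, numpy 2.4.6, scipy 1.17.1 and matplotlib 3.10.9 were used.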

Additional observations from a re-analysis of the deposited data

How the results depend on the processing

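The number of iHECs with 5 or more members was 11, and 5 with a threshold of 10 TPM. The number of members higher by 2 or more from iHEC to day 14 was 7, and 4 with a pseudocount of 10 (Coro1a, Rac2, Hcls1 and Vav1), under which 4.95% of genes were. With a pseudocount of 0.1 the median difference of the members from iHEC to day 14 was 5.33 in place of 2.95 (1.01 with a pseudocount of 10), and 1 member was higher by 2 or more from day 14 to day 17. With median-of-ratios size factors Dock2 fell just under 2, and 6 members were counted. Under these factors 9 in place of 10 other leukocyte cytoskeleton genes and 2 in place of 3 actin and monomer binding genes were higher by 2 or more from iHEC to day 14, and 1 in place of 0 WAVE complex genes was lower. Of the 10 genes most like the members, Spearman's rank correlation shared 5 over all cells, and removing the trend over genes above 1 TPM shared 5 in iHECs. Of the other values computed under alternatives for these counts and medians, 42 moved by less than the spread between cells or less than 1.5 times. The difference of Lcp1 from iHEC to day 14 was -0.01, -0.17 with size factors and 0.65 without iHPCs of low Ptprc, so no direction is given for it. The same holds for Arpc1b (-0.08, -0.25 and 0.26) and for Wipf1 (-0.35, and 0.20 with a pseudocount of 0.1). From day 17 to day 21 the sign also turned for Rac2 (0.23, and -0.10 without iHPCs of low Ptprc), Coro1a (-0.14, and 0.06 without the cells of fewest genes) and Wipf1 (-0.02, and 0.14 with a pseudocount of 10), and from day 14 to day 17 for Arpc1b (0.18, and -0.01 without iHPCs of low Ptprc). No paired analysis was possible because the labels name no culture or animal that cells of different groups share. The TPM scale keeps no depth, so a member listed at 0 cannot be told from one that was missed, and each group is 1 sample.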
